A study of Homo sapiens with 16 samples.

Results

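S100P and S100A2 encode small calcium-binding proteins of the S100 family, and their transcripts were read across 16 Affymetrix arrays from AsPC-1, an established human cell line from a pancreatic adenocarcinoma. All probe sets listed for either gene alone were taken. There were 2 of them among the 9554 probe sets of the deposited table, 204351_at for S100P and 204268_at for S100A2, or 2 of the 5250 genes fitted. ICG-001, known as a ligand of the coactivator CBP that keeps β-catenin from it, was given at 10 µM, and DMSO served as vehicle. Each agent was given for 6 h and for 24 h, and each of these 4 groups has 3 arrays. In a separate experiment, cells were transfected with 20 nM of CTNNB1 siRNA, directed at the gene for β-catenin, or with 20 nM of control siRNA, and RNA was taken at 48 h, with 2 arrays per group. All groups are cultures of a single cell line, and replicates are titled biological in the labels, with no word on whether separate cultures or days were used. Every error here rests on the spread between these arrays. An SD is that of the arrays of a group. A standard error (SE) comes from an estimate of spread shared by all groups and drawn towards that of other genes, so it is not the spread of the groups compared alone.

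S100 proteins bind calcium through paired EF-hand motifs, act mostly as dimers, and pass the calcium signal on to partner proteins in the cell or, once released, to receptors at the surface of neighbouring cells. S100P was first isolated from placenta and is often abundant in pancreatic ductal adenocarcinoma, where it is used as a tumour marker; it binds the membrane linker ezrin and, outside the cell, the receptor RAGE. S100A2 is best known from the basal layer of squamous epithelia and is produced by a part of pancreatic tumours.

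Both genes were picked with results of these arrays already known, among them the difference of S100P between ICG-001 and DMSO at 24 h. Their own levels and changes are therefore given as a description, with a standard error and no p-value. Changes are differences of log2(intensity + 16) after quantile normalization of the 16 arrays, fitted with limma over 5250 genes. The same difference in the deposited scaling stands beside them, because the 2 scalings part for bright genes. Quantile normalization put the median log2 change of the brightest 525 genes with ICG-001 at -0.19 for 6 h and -0.13 for 24 h. Without it those medians were 0.13 and 0.22.

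The promoters of both genes, credited to RefSeq on GRCh38.p14, are shown because both transcripts differed between ICG-001 and DMSO at 24 h and CBP takes its name from the factor CREB. Each window holds 250 bases before the annotated start and 50 after it, written 5′ to 3′ on the strand of the gene, at chr4:6693628-6693927 on the plus strand for S100P and at chr1:153565795-153566094 on the minus strand for S100A2. Capitals mark matches, on either strand, to the letters CTTTGAT (TCF/LEF, the partners of β-catenin), TGACG (the CREB/ATF core), GCGTG (the core of the aryl hydrocarbon receptor site) or TATAAA (the TATA box).
S100P: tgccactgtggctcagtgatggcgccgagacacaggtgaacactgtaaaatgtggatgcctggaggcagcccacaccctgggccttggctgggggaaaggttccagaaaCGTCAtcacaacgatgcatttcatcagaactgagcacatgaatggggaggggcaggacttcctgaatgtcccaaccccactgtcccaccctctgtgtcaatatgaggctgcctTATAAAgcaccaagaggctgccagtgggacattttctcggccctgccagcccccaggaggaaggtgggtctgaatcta
S100A2: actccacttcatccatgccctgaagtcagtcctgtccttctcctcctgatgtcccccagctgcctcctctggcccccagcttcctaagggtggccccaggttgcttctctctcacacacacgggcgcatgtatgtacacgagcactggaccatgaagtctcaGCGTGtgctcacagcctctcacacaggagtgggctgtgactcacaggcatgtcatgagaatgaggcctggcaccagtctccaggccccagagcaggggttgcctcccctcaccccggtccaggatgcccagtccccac
The S100P window held TGACG, on the opposite strand and 141 bases before the start, and TATAAA, 28 bases before the start. The S100A2 window held GCGTG, 88 bases before the start, and a further S100A2 window, at chr1:153563838-153564137 on the minus strand, held none of these letters. The matches did not overlap. Of 35116 promoter windows of that length, 24.6% held TGACG, 11.5% held TATAAA, 36.5% held GCGTG and 2.62% held CTTTGAT. The motifs were chosen after the sequences had been seen, and a match is a description of letters, not a binding site.

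ICG-001 was accompanied by more S100P RNA at both times. At 6 h the S100P intensity was 4782, 4581 and 4535 on the arrays with ICG-001, against 1569, 1496 and 1456 on those with DMSO. Every array with ICG-001 lay above every array with DMSO, and the ratio of the mean intensities was 3.07. The fitted log2 change was 1.10 ± 0.06 (± SE), and 1.61 ± 0.05 in the deposited scaling. The arrays of the 2 groups did not overlap for 27.5% of all genes at this time, and nothing is read from the lack of overlap of S100P, which was chosen for its response.

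At 24 h the S100P intensity was 6851, 6909 and 6527 with ICG-001, against 727, 686 and 753 with DMSO. The groups lay apart by a ratio of 9.37 of their means, and their SDs were 206 and 33.9 (n = 3 each). The log2 change was 2.74 ± 0.06, and 3.20 ± 0.05 in the deposited scaling. It was the third highest of the 5250 genes, of which 32.8% had groups that did not overlap.

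Between the times, S100P differed in opposite directions with the 2 agents. The S100P log2 difference of 24 h over 6 h was 0.48 ± 0.06 with ICG-001, against -1.16 ± 0.06 with DMSO. In mean intensity, S100P at 24 h with DMSO was 0.479 of its level at 6 h with DMSO. The difference between ICG-001 and DMSO at 24 h shares its arrays with both of these differences. The response at 24 h exceeded the one at 6 h by 1.64 ± 0.09 on the log2 scale (1.59 in the deposited scaling; this difference passed for 7.81% of all genes). Groups did not overlap for 33.8% of genes between the times with ICG-001, and for 22% with DMSO.

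S100A2 differed more between the times than between the agents. At 6 h the S100A2 intensity was 1342, 1381 and 1375 with ICG-001, against 1404, 1393 and 1376 with DMSO. These deposited values overlapped, with means of 1366 ± 20.9 and 1391 ± 14.3 (SD, n = 3 each). The S100A2 log2 change at 6 h depended on the scaling. Quantile normalization gave -0.39 ± 0.09, whereas the value was -0.025 ± 0.10 as deposited and -0.037 with arrays centred on their medians.

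At 24 h the S100A2 intensity was 773, 768 and 733 with ICG-001, against 560, 579 and 557 with DMSO. All ICG-001 arrays lay above all DMSO arrays in both scalings, with a ratio of means of 1.34. After quantile normalization, 32.8% of all genes had groups that did not overlap at this time. The S100A2 log2 change was 0.20 ± 0.09, and 0.41 ± 0.10 in the deposited scaling. The difference between 24 h and 6 h was larger than this: S100A2 stood at -0.80 ± 0.09 with ICG-001 and at -1.38 ± 0.09 with DMSO, or 0.555 and 0.406 of the 6 h intensity. With DMSO from 6 h to 24 h, S100A2 and S100P had the fifth and the sixth lowest log2 change of the 5250 genes.

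**Figure D1:**
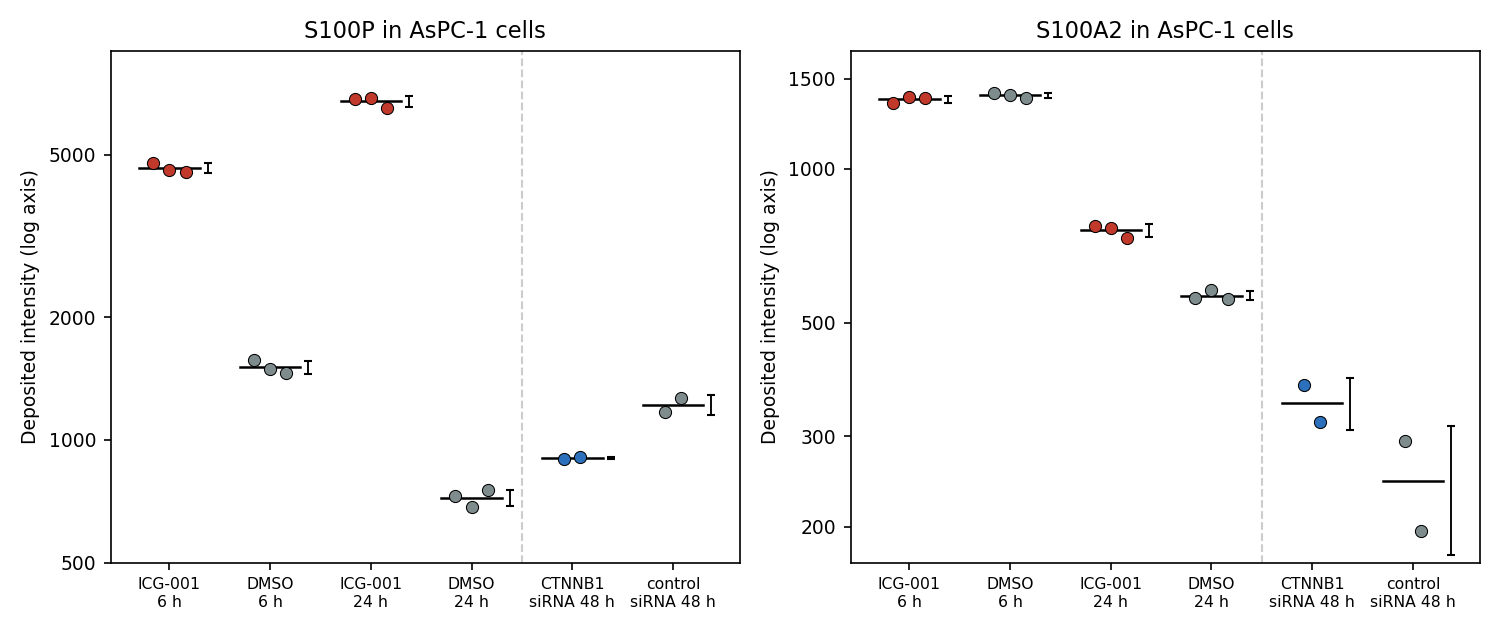
Deposited intensity (log axis) of S100P and S100A2 on each of the 16 arrays by group; horizontal lines are group means and the whiskers beside them are 1 SD. S100P was highest with ICG-001 at 24 h (6527 to 6909) and lowest with DMSO at 24 h (686 to 753), whereas S100A2 was highest at 6 h with either agent and lowest on the siRNA arrays.

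Knockdown of β-catenin was accompanied by less S100P and more S100A2. CTNNB1 itself was not among the genes analysed here, and the loss of the targeted transcript was not checked. The S100P intensity was 901 and 907 with CTNNB1 siRNA, against 1169 and 1268 with control siRNA, a ratio of means of 0.742. The S100P log2 change was -0.53 ± 0.08, and -0.42 ± 0.07 in the deposited scaling. This is the opposite sign to the S100P response to ICG-001, and the size was smaller at both times.

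The S100A2 intensity was 378 and 320 with CTNNB1 siRNA, against 294 and 196 with control siRNA. The pairs did not overlap, but the control arrays alone spanned a ratio larger than that of the group means, 1.42, with SDs of 40.9 and 69.2 (n = 2 each). The S100A2 log2 change was 0.39 ± 0.11, and 0.50 ± 0.12 in the deposited scaling. It was 0.16 without control siRNA replicate 2 and 0.61 without control siRNA replicate 1, so a single control array moved it by more than 1.5 times. With the siRNA arrays fitted alone, the S100A2 change was 0.46 ± 0.17, a wider error than in the fit that shares its spread with the drug arrays. Arrays of the 2 siRNA groups did not overlap for 44.1% of all genes.

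**Figure D2:**
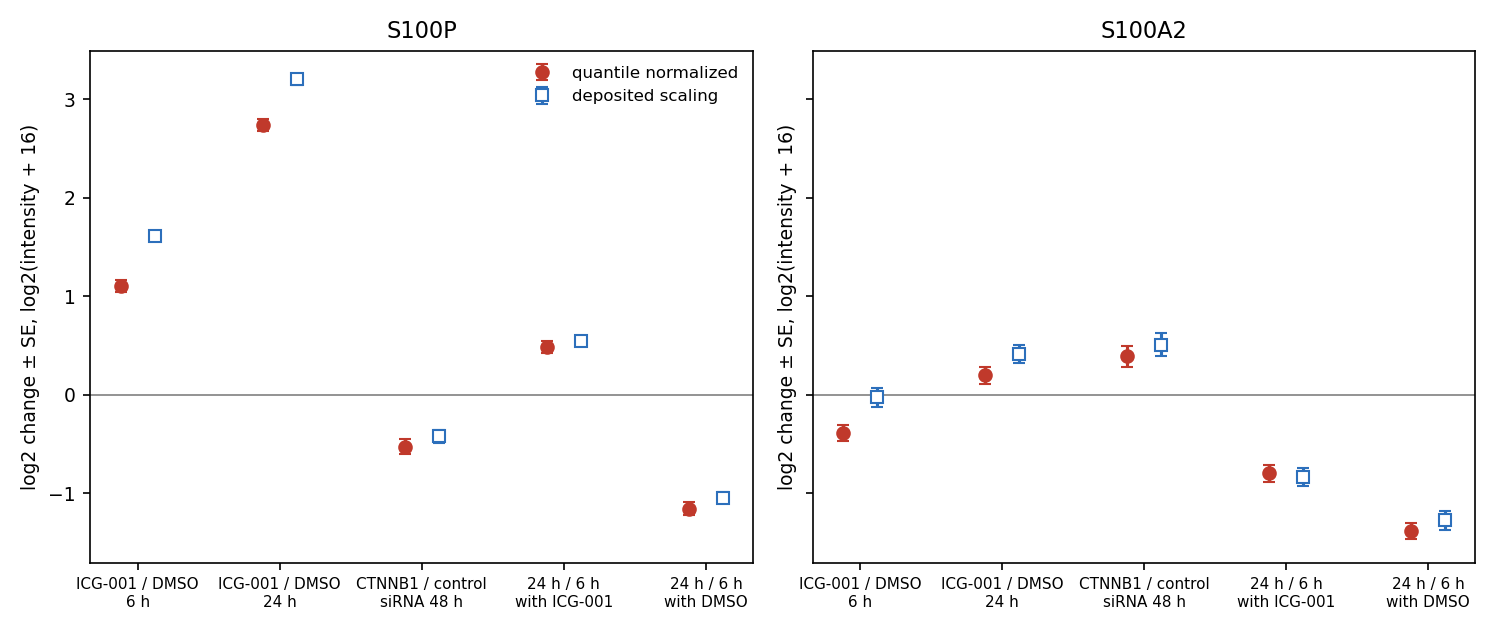
Log2 changes of S100P and S100A2 (± SE from the fit over all genes) in 5 comparisons, with quantile normalization (filled circles) and as deposited (open squares). S100P stood at 1.10 and 2.74 with ICG-001 at 6 h and 24 h, and the sign of its change with CTNNB1 siRNA was negative (-0.53); the S100A2 change at 6 h was -0.39 in one scaling and -0.025 in the other.

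Over the 6 groups, the normalized S100P level came in the order ICG-001 24 h, ICG-001 6 h, DMSO 6 h, control siRNA, CTNNB1 siRNA and DMSO 24 h. The mean log2 levels were 12.32, 11.83, 10.73, 10.54, 10.02 and 9.58. The closest neighbours were DMSO 6 h and control siRNA, 0.19 apart with an SD of 0.12 in the wider group, and they changed places when the arrays were centred on their medians. Arrays of neighbouring groups did not overlap at any step for S100P, and nothing is read from this, as S100P was chosen for its response. Groups did not overlap for 33.8% of all genes between the times with ICG-001. That share was 27.5% between ICG-001 and DMSO at 6 h and 44.1% between the siRNA groups. It was not computed for steps across the 2 experiments. For S100A2 the order was DMSO 6 h, ICG-001 6 h, ICG-001 24 h, DMSO 24 h, CTNNB1 siRNA and control siRNA. Its mean log2 levels were 10.60, 10.21, 9.41, 9.21, 8.68 and 8.30. For S100A2, the first 2 groups overlapped in deposited intensity, and the last 2 were 0.39 apart with an SD of 0.32 in the wider group. The siRNA arrays had a lower median deposited intensity (12.7 to 13.05) than the drug arrays (20.6 to 28.6), and deposited intensities set across the 2 experiments carry that gap. Quantile normalization gave all arrays the same distribution before the log2 levels above were taken. How far levels across the 2 experiments can be compared after this step was not tested.

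Of 19 other S100 genes listed, 4 were measured in the table, S100A6, S100A7A, S100A12 and S100A14. S100A14, an epithelial S100 protein encoded near S100A2 on chromosome 1, rose in all 3 main comparisons, and the other 3 passed in none of them after quantile normalization. At an adjusted p under 0.05, 13.8% of all genes passed at 6 h with ICG-001 (5.56% higher and 8.23% lower), 20.5% at 24 h and 12% with CTNNB1 siRNA. S100A14 averaged 3174 ± 113 with ICG-001 at 24 h, against 1173 ± 17.5 with DMSO (SD, n = 3 each), a log2 change of 0.91 ± 0.06 (adjusted p = 6.28e-10, and 1.42 in the deposited scaling). With CTNNB1 siRNA, S100A14 rose by 0.54 ± 0.07 (adjusted p = 5.78e-05), where its mean intensity was 1272 against 877 with control siRNA.

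At 6 h S100A14 rose by 0.23 ± 0.06 (adjusted p = 0.0143), while its change as deposited was 0.72 (adjusted p = 2.97e-08). After quantile normalization that call at 6 h ended without DMSO 6 h replicate 1 (adjusted p = 0.0628), ICG-001 6 h replicate 2 (adjusted p = 0.05) or ICG-001 6 h replicate 3 (adjusted p = 0.0692), and in a fit with no intensity trend (adjusted p = 0.154). With DMSO, S100A14 was also lower at 24 h than at 6 h (log2 change -0.54 ± 0.06, adjusted p = 4.84e-06; 8.63% of all genes passed there). S100A12, a phagocyte protein, was dim, at 32.6 ± 7.95 with ICG-001 at 6 h and 12.3 ± 4.86 with DMSO (log2 change 0.70, adjusted p = 0.0737), and it passed there in the deposited scaling (0.78, adjusted p = 0.0325). The calcyclin gene S100A6 stood at 0.34 at 24 h (adjusted p = 0.0989), and at 0.43 in the deposited scaling (adjusted p = 0.0156). S100A7A, koebnerisin, stood at -0.13 at 24 h (adjusted p = 0.736).

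Among the 5 nearest protein-coding genes on each side of S100P and of S100A2, taken from RefSeq after the values were seen, 2 of 10 were measured in each case. For S100A2 these were S100A6 and S100A14. Near S100P, PPP2R2C, a regulatory subunit of the phosphatase PP2A, rose by 1.12 ± 0.08 with ICG-001 at 24 h (adjusted p = 1.22e-09, and 1.48 in the deposited scaling). PPP2R2C also rose with CTNNB1 siRNA, by 0.64 ± 0.10 (adjusted p = 0.000118), where S100P was lower. The other measured neighbour, CFAP184, named for cilia and flagella, rose by 0.47 ± 0.13 at 24 h (adjusted p = 0.0129). That call of CFAP184 ended without DMSO 24 h replicate 1 (adjusted p = 0.0767), DMSO 24 h replicate 2 (adjusted p = 0.0502) or ICG-001 24 h replicate 2 (adjusted p = 0.058).

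Of 26 listed S100 receptors and binding partners 9 were measured; AGER, which encodes RAGE, EZR for ezrin and CACYBP were not among them. With ICG-001, 0 rose and 2 fell at 6 h, and 0 rose and 2 fell at 24 h (over all genes 5.56% rose and 8.23% fell at 6 h, and 9.22% rose and 11.3% fell at 24 h). Both times these were TLR4 and IQGAP1. TLR4, a receptor for S100A8 and S100A9, fell by 0.89 ± 0.13 at 6 h (adjusted p = 3.32e-05), with intensities of 84.9 ± 5.31 with ICG-001, against 158 ± 10.4 with DMSO. At 24 h the TLR4 change was -0.39 (adjusted p = 0.0372) and missed the threshold in the deposited scaling (-0.25, adjusted p = 0.199), with 1 added (adjusted p = 0.0506) and with no intensity trend (adjusted p = 0.0553). That TLR4 call at 24 h also ended without any 1 of DMSO 24 h replicates 1, 2 and 3 and ICG-001 24 h replicates 1 and 3, with adjusted p-values of 0.0577 to 0.2.

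IQGAP1, a scaffold protein that S100P binds, fell by 0.47 ± 0.09 at 6 h (adjusted p = 0.00056), but stood at -0.10 in the deposited scaling (adjusted p = 0.717). At 24 h IQGAP1 fell by 0.64 ± 0.09 (adjusted p = 1.1e-05; -0.33 in the deposited scaling, adjusted p = 0.0147). With CTNNB1 siRNA 2 of the 9 partners rose and 1 fell, while 6.19% of all genes rose and 5.83% fell. MDM2, a ubiquitin ligase, fell by 1.01 ± 0.10 (adjusted p = 1.69e-06), with a mean intensity of 25.2 with CTNNB1 siRNA, against 64.5 with control siRNA. IQGAP1 rose by 0.42 ± 0.11 (adjusted p = 0.0147) and RDX, an ezrin relative, rose by 0.79 ± 0.23 (adjusted p = 0.0311). The RDX intensity averaged 15.2 with CTNNB1 siRNA and 5.09 with control siRNA, both under the 16 added before log2, and with 1 added the change was 1.61 (adjusted p = 0.054). Neither rise passed in the deposited scaling (adjusted p = 0.0967 for IQGAP1 and 0.184 for RDX). The IQGAP1 rise also ended without CTNNB1 siRNA replicate 1 (adjusted p = 0.0723) or control siRNA replicate 2 (adjusted p = 0.084). The IQGAP1 rise was also lost in a fit with no intensity trend (adjusted p = 0.0822). The RDX rise ended without CTNNB1 siRNA replicate 2 (0.40, adjusted p = 0.323), control siRNA replicate 1 (adjusted p = 0.0618) or control siRNA replicate 2 (adjusted p = 0.127).

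Basal and squamous epithelial genes, the setting in which S100A2 is best known, did not move one way. Of 38 listed genes 12 were measured, and with ICG-001 1 rose and 2 fell at 6 h, and 2 rose and 3 fell at 24 h. Over all genes the shares were 5.56% and 8.23% at 6 h, and 9.22% and 11.3% at 24 h. In the deposited scaling, 3 rose and 0 fell at 6 h, and 3 rose and 2 fell at 24 h. LAMB3, the β3 chain of laminin-332, rose by 1.18 ± 0.09 at 24 h (adjusted p = 3.62e-09), to 6170 ± 178 with ICG-001, against 1788 ± 122 with DMSO. LAMB3 also rose by 0.40 ± 0.09 at 6 h (adjusted p = 0.00328; 1.04 in the deposited scaling) and by 1.23 ± 0.11 with CTNNB1 siRNA (adjusted p = 2.71e-07). CSTA, the protease inhibitor cystatin A, rose by 2.06 ± 0.17 at 24 h (adjusted p = 1.48e-08), with a mean intensity of 120 ± 19.1 with ICG-001, against 11.6 ± 2.91 with DMSO, the DMSO level lying below the 16 added before log2.

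KLK7, a kallikrein protease of the skin, fell by 1.61 ± 0.10 at 24 h (adjusted p = 2.7e-10) and by 1.09 ± 0.12 with CTNNB1 siRNA (adjusted p = 5.23e-06). Its fall of 0.55 at 6 h (adjusted p = 0.00048) missed the threshold in the deposited scaling (-0.24, adjusted p = 0.119). The desmosomal cadherin gene DSC2 fell by 0.87 ± 0.15 at 24 h (adjusted p = 0.00021; -0.57 in the deposited scaling) and by 0.81 ± 0.19 with CTNNB1 siRNA (adjusted p = 0.00708). The DSC2 change at 6 h, -0.64 (adjusted p = 0.00577), was -0.30 in the deposited scaling (adjusted p = 0.311), and that call ended without DMSO 6 h replicate 1 (adjusted p = 0.0509). DSG3, another desmosomal cadherin gene, fell by 0.98 ± 0.07 with CTNNB1 siRNA (adjusted p = 3.05e-08). At 24 h with ICG-001 the sign for DSG3 turned with the scaling, -0.45 (adjusted p = 7.55e-06) against 0.10 (adjusted p = 0.266). With CTNNB1 siRNA 2 of the 12 genes rose and 4 fell, while 6.19% of all genes rose and 5.83% fell.

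Pancreatic cancer markers, among which S100P is often counted, gave 3 rises and 3 falls of 17 measured genes (40 listed) with ICG-001 at 6 h, and 7 rises and 3 falls at 24 h. Over all genes, 5.56% rose and 8.23% fell at 6 h, and 9.22% rose and 11.3% fell at 24 h. The list's median log2 change at 24 h was 0.21, against -0.02 over all genes. In the deposited scaling the list had 4 rises and 0 falls at 6 h, 8 rises and 2 falls at 24 h, and a median of 0.48 at 24 h against 0.09. PSCA, a surface antigen of prostate and pancreatic tumours, rose by 1.39 ± 0.13 at 24 h (adjusted p = 6.72e-08), to 536 ± 31.6 with ICG-001, against 178 ± 11.7 with DMSO. At 6 h PSCA stood at 0.47 (adjusted p = 0.0164), a call that ended without DMSO 6 h replicate 1 (adjusted p = 0.0913) or ICG-001 6 h replicate 1 (adjusted p = 0.113). The dehydrogenase gene SDR16C5 rose by 0.81 ± 0.10 at 6 h (adjusted p = 2.43e-06) and by 0.52 ± 0.10 at 24 h (adjusted p = 0.000329).

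The largest falls among the markers at 24 h were those of the matrix metalloproteinase MMP7 (-2.45 ± 0.15, adjusted p = 1.3e-10) and the ductal keratin KRT7 (-1.35 ± 0.09, adjusted p = 6.07e-10). Their falls at 6 h, by 0.69 for MMP7 and by 0.59 for KRT7, missed the threshold in the deposited scaling (-0.28, adjusted p = 0.18 for MMP7 and -0.21, adjusted p = 0.164 for KRT7). With CTNNB1 siRNA 5 of the 17 markers rose and 1 fell (6.19% and 5.83% of all genes). The log2 change of MMP7 there was -2.39 ± 0.18 (adjusted p = 3.26e-08). Its mean intensity was 681 ± 130 with CTNNB1 siRNA, against 2972 ± 986 with control siRNA (SD, n = 2 each). KRT7 rose there by 1.06 ± 0.11 (adjusted p = 1.91e-06), to 252 ± 4.66 with CTNNB1 siRNA, against 92.2 ± 16.9 with control siRNA (SD, n = 2 each).

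CEACAM1, an adhesion molecule, rose by 0.88 ± 0.13 with CTNNB1 siRNA (adjusted p = 7.57e-05), and by 0.64 ± 0.10 with ICG-001 at 24 h (adjusted p = 7.42e-05; 1.05 in the deposited scaling). At 6 h CEACAM1 stood at 0.35 (adjusted p = 0.0255), and that call ended without DMSO 6 h replicate 1 (adjusted p = 0.0946), DMSO 6 h replicate 2 (adjusted p = 0.084), ICG-001 6 h replicate 2 (adjusted p = 0.0803) or ICG-001 6 h replicate 3 (adjusted p = 0.0844). The 0.74 of CEACAM1 in the deposited scaling at 6 h had an adjusted p of 3.06e-05, and with no intensity trend the call at 6 h ended (adjusted p = 0.116). The membrane mucin MUC4 passed at 24 h (0.61, adjusted p = 0.0152) and with CTNNB1 siRNA (0.68, adjusted p = 0.0442). The MUC4 call at 24 h ended with the drug arrays normalized alone (0.17, adjusted p = 0.606). It also ended on leaving out DMSO 24 h replicate 2 (adjusted p = 0.0671), ICG-001 24 h replicate 1 (adjusted p = 0.0672) or ICG-001 24 h replicate 3 (adjusted p = 0.0576), and the siRNA call ended in the deposited scaling (adjusted p = 0.0749), with 1 added (adjusted p = 0.0914), with the siRNA arrays alone (adjusted p = 0.218) and without CTNNB1 siRNA replicate 1 (adjusted p = 0.086) or 2 (adjusted p = 0.167) or control siRNA replicate 1 (adjusted p = 0.258). SDR16C5 also passed with CTNNB1 siRNA (0.46, adjusted p = 0.0147), but with the siRNA arrays alone it did not (adjusted p = 0.0916), nor on leaving out CTNNB1 siRNA replicate 1 (adjusted p = 0.0767) or control siRNA replicate 2 (adjusted p = 0.0608).

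**Figure D3:**
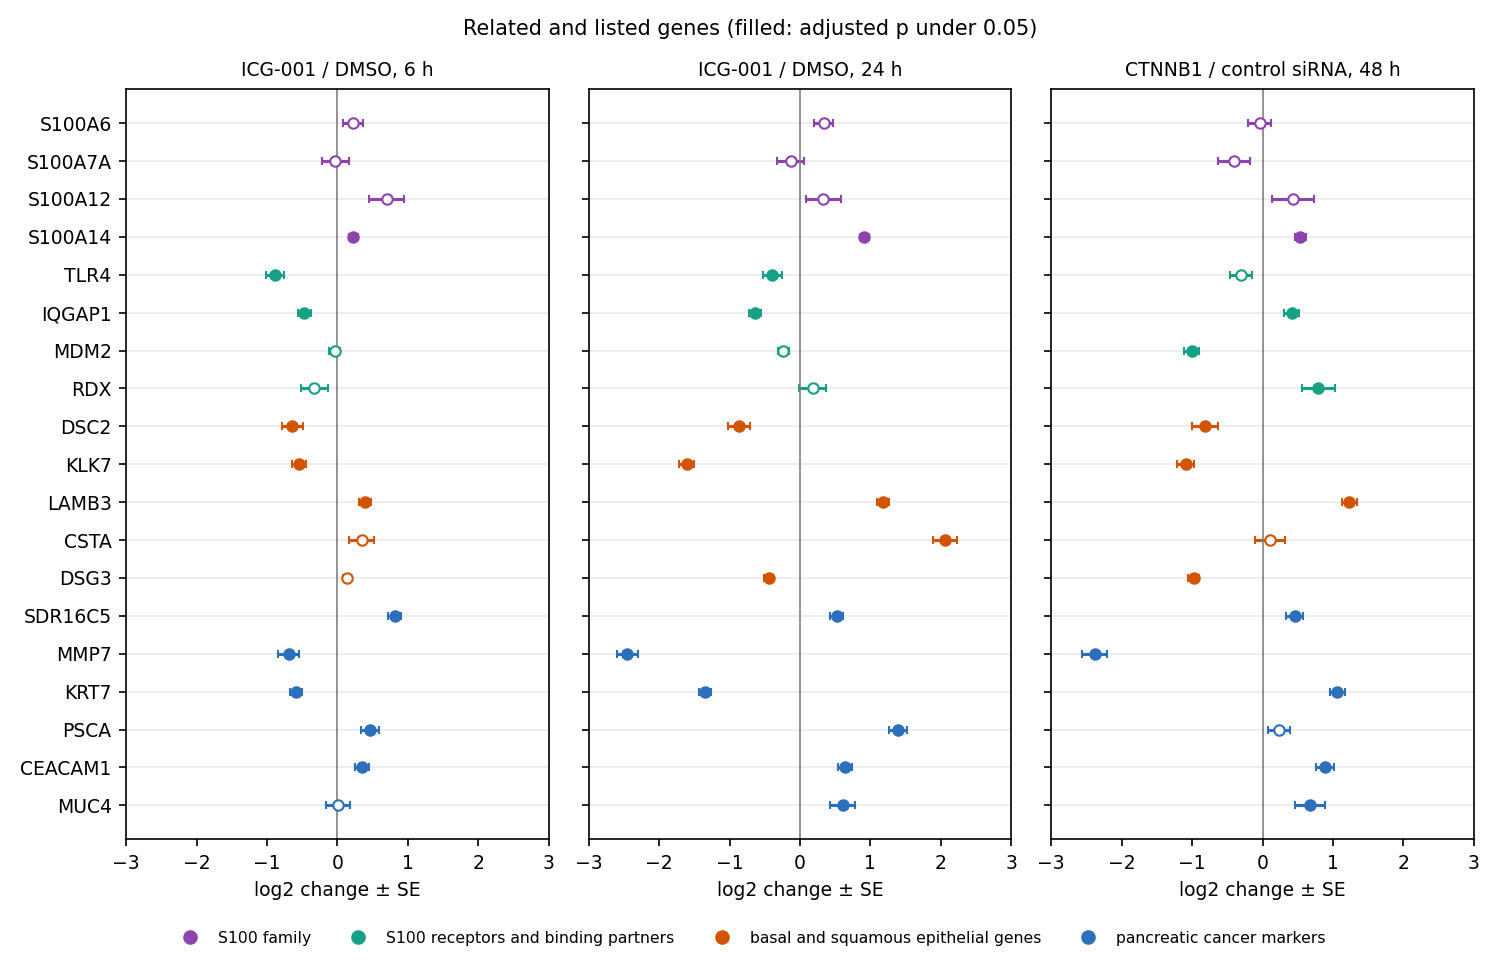
Log2 change (± SE, quantile normalized) of the measured other S100 genes and of the listed genes chosen by size, in the 3 main comparisons; filled points had an adjusted p under 0.05 in the limma fit. S100A14, LAMB3, SDR16C5 and CEACAM1 were above 0 and called in all 3 panels, and MMP7, KLK7 and DSC2 were below 0 and called in all 3 (at 6 h these 3 were not called in the deposited scaling).

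Genes with the most similar pattern were found by the root mean square difference between the 6 group means of normalized log2 values, each gene centred on its own mean. The closest to S100P was BMP6, a ligand of the BMP family, at 0.30 log2 units, against a median of 1.00 over all genes. It was followed by PSAT1 (0.39), an enzyme of serine synthesis, PCK2 (0.39), the mitochondrial phosphoenolpyruvate carboxykinase, the adaptor gene LAT2 (0.45), SLC1A4 (0.45), a neutral amino acid transporter, SOCS2 (0.46), CAMTA2 (0.47) and KDM7A (0.47). BMP6 averaged 850 ± 49.9 with ICG-001 at 24 h, against 165 ± 13 with DMSO. The BMP6 log2 difference of 24 h over 6 h was 0.86 with ICG-001 and -0.52 with DMSO, given as a description since BMP6 was chosen for these group means. Of these 8 genes, 5 were also among the 8 closest in the deposited scaling, and 2 were when only the 4 drug groups were used.

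The closest pattern to S100A2 was that of MPRIP (0.20, against a median of 0.83), which encodes a partner of myosin phosphatase, and MPRIP was also the closest in the drug groups alone, the only 1 of the 8 genes to stay among the 8 closest there. GCLM (0.27), a subunit of the enzyme that starts glutathione synthesis, XPO1 (0.30), a nuclear export receptor, DAPP1 (0.31), IRAK3 (0.31), CCDC9B (0.31), ZNF582 (0.31) and SLC52A3 (0.33) came next. In deposited intensity, MPRIP averaged 1087 ± 16.3 with ICG-001 and 931 ± 47.3 with DMSO at 6 h. At 24 h it averaged 542 ± 27 with ICG-001 and 482 ± 35.1 with DMSO. The sign of its response turned with the scaling. After quantile normalization, the MPRIP log2 change was -0.12 at 6 h and -0.09 at 24 h, against 0.22 and 0.17 as deposited. At 24 h the normalized S100A2 change was 0.20, of the opposite sign. All 8 genes had lower fitted values at 24 h than at 6 h with DMSO. Nothing is read from this, as they were chosen for likeness to S100A2 on these same group means. Of these 8 genes, 3 were among the 8 closest in the deposited scaling. S100P and S100A2 themselves were 0.98 apart, and S100A2 came in place 2303 of 5249 for likeness to S100P.

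**Figure D4:**
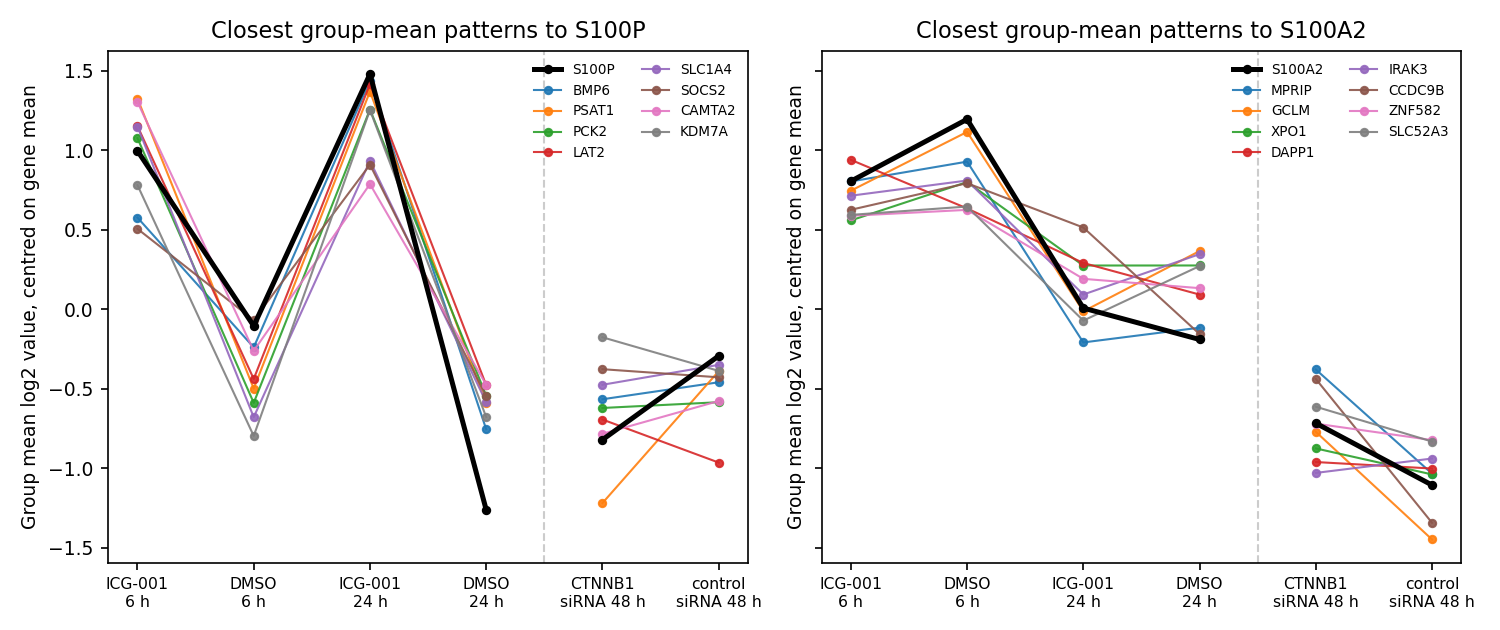
Group means of the quantile-normalized log2 values, each gene centred on its own mean over the 6 groups, for S100P and S100A2 (black) and the 8 genes closest to each; lines join groups within an experiment. The S100P panel alternates between ICG-001 and DMSO at both times, and the S100A2 panel steps down between the times and again to the siRNA arrays; the genes were chosen for this likeness.

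Across the table, replicate arrays of a group correlated at 0.968 to 0.984 over log2 values. The mean intensity was 164 to 179 on the ICG-001 arrays, 132 to 137 on the DMSO arrays and 106 to 110 on the siRNA arrays, and was thus higher with ICG-001, as was S100P; its part in that difference was not tested. Of the epithelial markers, CLDN7 had group means of 1007 to 3469 and KRT7 of 92.2 to 1469, while CDH1 (10.5 to 355) and KRT19 (10.2 to 104) were dimmer. Of 20 markers of other cell types, 6 were measured, with intensities of 1 to 106. The probe set of CREBBP, the gene of CBP, was dim, with intensities below the 16 added before log2 in every group mean given here. CREBBP averaged 3.40 ± 1.52 with ICG-001 and 14.7 ± 6.75 with DMSO at 6 h (log2 change -0.61, adjusted p = 0.0144), and 5.90 ± 3.38 with ICG-001 and 7.48 ± 2.62 with DMSO at 24 h (-0.17, adjusted p = 0.604). The CREBBP call at 6 h ended without ICG-001 6 h replicate 1 (adjusted p = 0.0766), DMSO 6 h replicate 1 (adjusted p = 0.103) or DMSO 6 h replicate 2 (adjusted p = 0.0505). With CTNNB1 siRNA the CREBBP change was -0.76 (adjusted p = 0.019). That call ended in the deposited scaling (-0.55, adjusted p = 0.154), with 1 added (-1.72, adjusted p = 0.0715), with the siRNA arrays alone (adjusted p = 0.246), and without CTNNB1 siRNA replicate 2 (adjusted p = 0.0927) or control siRNA replicate 2 (adjusted p = 0.0815).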

How the data were processed

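Per the labels, total RNA of AsPC-1 cells was labelled with biotin by the Affymetrix procedure. The deposited values are linear intensities (0.55 to 19346.51). How the authors summarised and scaled them is not given in the sources used here. Exactly 1 was listed for 1.1% of the 152864 values. Every probe set varied over the arrays (coefficient of variation of at least 0.4), so the table is a selection and shares refer to it. GEO's platform annotation listed 1 gene for 6442 of 9554 probe sets, several for 252 and none for 2860, and 6432 symbols were updated by gene identifier.

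The number 16 was added, log2 taken and the 16 arrays quantile normalized, because array medians differed by 0.64 over both experiments. Within an experiment the log2 medians differed less, by 0.28 over the drug arrays and by 0.017 over the siRNA arrays. The brightest probe set per gene in the table was kept (5250 genes). As the table is a selection, other probe sets of a gene may be missing from it. limma 3.58.1 in R 4.3.3 fitted 1 term per group to all arrays with an intensity trend (10 residual and 7.84 prior degrees of freedom), with two-sided tests adjusted by Benjamini-Hochberg over all genes and a threshold of 0.05. The procedure was tested on simulated data. The number of arrays limits the precision.

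The members and gene lists were chosen with earlier results of these data known. Besides S100P and S100A2, named genes were all measured S100 genes, per list and comparison the 4 called genes with the largest change, the 8 most similar patterns per member, and CREBBP; CTNNB1 and EP300 were not among the genes analysed here. Same-numbered replicates correlated at -0.15 to 0.09 in their deviations from the group means, so the numbers were not treated as pairs. Alternatives were the deposited scaling, median centring, 1 or 64 added, 1 experiment at a time, no trend, all probe sets, a replicate block, no dim genes, and leaving out each array.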

Additional observations from a re-analysis of the deposited data

Results flagged for a closer look

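The response to ICG-001 differed between 24 h and 6 h, by the limma test of the difference itself (24 h minus 6 h, log2, adjusted over all genes), for 13 of the 38 named genes tested. Over all genes, 7.81% passed this test. Most of the 38 were chosen for their changes or patterns on these same arrays, so nothing is read from the 13. The difference was 0.69 for S100A14 (adjusted p = 2.49e-05), 0.94 for PPP2R2C (adjusted p = 1.14e-05), 0.78 for LAMB3 (adjusted p = 0.000298), 1.72 for CSTA (adjusted p = 8.59e-05) and 0.92 for PSCA (adjusted p = 0.00237), all larger at 24 h. As a description of genes picked for their likeness to S100P on these group means, it was 1.38 for BMP6, 0.88 for SOCS2 and -0.30 for CAMTA2. It was 0.84 for CCDC9B, picked in the same way for its likeness to S100A2. It was -1.06 for KLK7 (adjusted p = 5.6e-05), -1.76 for MMP7 (adjusted p = 1.16e-05), -0.76 for KRT7 (adjusted p = 0.00044) and -0.58 for DSG3 (adjusted p = 0.000107).

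S100A2 was flagged because all 3 arrays with ICG-001 lay above those with DMSO at 24 h and below them at 6 h after quantile normalization. Over all genes, groups did not overlap for 27.5% at 6 h and 32.8% at 24 h. The share of genes that parted in opposite directions at these times was not counted. The difference between the S100A2 responses was 0.59, and was not tested, as S100A2 was chosen with results known. In deposited intensity the S100A2 groups overlapped at 6 h.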

How the results depend on the processing

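With the deposited scaling, the log2 change of S100P was 1.61 at 6 h, 3.20 at 24 h and -0.42 with CTNNB1 siRNA, and that of S100A2 was -0.025 at 6 h and 0.41 at 24 h; median centring gave 1.60, 3.07 and -0.42 for S100P and -0.037 and 0.29 for S100A2. With the 12 drug arrays alone S100P stood at 1.16 and 2.86. None of these alternatives turned the sign of either gene. The cause of these shifts was not tested. Leaving out 1 array gave 1.07 to 1.14, 2.71 to 2.81 and -0.62 to -0.44 for S100P, and -0.40 to -0.37, 0.18 to 0.21 and 0.16 to 0.61 for S100A2, in the same order of comparisons. Called genes with CTNNB1 siRNA numbered 631, against 414 with median centring and 304 on the 4 siRNA arrays alone, where 10 listed genes were called, against 16; fewer arrays there leave fewer degrees of freedom. Listed genes called at 6 h numbered 12, and 7 to 11 with 1 array left out (7 without DMSO 6 h replicate 1). The deposited scaling moved the split at 6 h to 406 genes higher and 244 lower, against 292 and 432, and at 24 h to 740 and 385, against 484 and 592. DSG3 at 24 h changed sign there (0.10). Of 68 calls of named genes, 12 others were lost in the deposited scaling, 11 with median centring, 4 with 1 added before log2 and 0 with 64. The replicate block gave 734, 1093 and 656 called genes in the 3 main comparisons and ended 0 of the 68 calls.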
